A study of Mus musculus with 15 samples.

Results

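The 29 mouse genes described here make cholesterol, control its synthesis, and move, store or export it. They were chosen by name. They comprised 18 enzymes of the path from acetyl-CoA to cholesterol, Ggps1 of the isoprenoid side branch, 4 genes that control the path, 4 genes for transport within the cell and esterification, and the exporters Abca1 and Abcg1. Each of the 29 symbols matched 1 of the 46603 Ensembl identifiers counted. All 29 were among the 15997 genes that passed a filter on low counts, although Abcg1 passed only through its treated day 5 samples. RNA was sequenced from 15 samples of mouse embryonic fibroblasts (MEFs), which are primary connective tissue cells. The fibroblasts of all 5 groups came from wild-type BALB/c embryos labelled as 10.5 days old, and grew in DMEM with 10% FBS. MEFD0 was sampled at day 0 without treatment, and MEFD3min and MEFD5min were untreated cells at day 3 and day 5. MEFD3plu received differentiation medium for 3 days, with 10 µM rosiglitazone (a PPARγ agonist), 1 µM dexamethasone (a glucocorticoid), insulin at 10 µg/mL and 0.5 mM IBMX, a phosphodiesterase inhibitor. MEFD5plu received the same medium and then 2 days of growth medium. Each group had 3 samples, numbered 1, 3 and 4, and the labels do not say whether these came from separate cultures. The p-values therefore measure the spread between these samples, which may be technical.

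Cholesterol is built from acetyl-CoA through mevalonate, isoprenoid units, squalene and lanosterol. When sterols are low in the membrane of the endoplasmic reticulum, Scap carries the transcription factor precursor encoded by Srebf2 to the Golgi, where it is cut and released to switch on the enzymes of the path. When sterols are high, the Insig proteins hold Scap back, and liver X receptors (LXRs), which bind oxysterols, switch on the exporters Abca1 and Abcg1. Adipocytes hold much free cholesterol in and around their lipid droplets.

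The libraries held between 24030558 and 37281126 counts, the fewest in MEFD5min replicate 3. Replicates differed beyond counting noise (chi-square between 4.39 and 79.7 per degree of freedom in the 15 pairs). Levels are given as CPM, counts per 1000000 after scaling by edgeR's TMM method. The summed level of fibroblast markers was high in every group (8 markers, between 8373 and 25591 CPM, the highest 3 samples all MEFD3min). Single markers were not all high. Mean S100a4 was 146 CPM in MEFD0, 11.9 CPM in MEFD3min and 2.06 CPM in MEFD3plu. Mean Thy1 was 76.2 CPM in MEFD3min and 15.05 CPM in MEFD3plu, while mean Pdgfrb was 93.3 and 118 CPM in these groups. Of 8 adipocyte markers, the summed level was 42.7 to 65.5 CPM in untreated samples, 9563 to 12062 CPM in MEFD3plu and 11192 to 13257 CPM in MEFD5plu. Summed markers of endothelial cells, macrophages, epithelium, neurons and skeletal muscle (6 each) stayed at or under 18.5, 6.97, 1.19, 10.2 and 2.65 CPM, and epithelial Epcam and Cdh1 were at or under the floor of 3 counts in every sample. The share of cells that had become adipocytes was not measured, so that more cells of this type and more RNA per cell cannot be told apart in any of the comparisons below. The part of the change in cell type in these results was not tested.

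The promoters of this pathway share a sequence feature, so a few are printed here. SREBP binds the sterol response element, in its textbook form TCACNCCAC, and acts together with NF-Y, which binds CCAAT. RefSeq promoter windows on GRCm38.p6 (250 bases before to 50 after the start of transcription) were found for 23 of the 29 genes, the missing ones being Fdps, Fdft1, Sqle, Stard4, Npc1 and Abcg1. On either strand, CCAAT was present in 20 of these 23 genes (87.0%) and in 14 of 15 synthesis enzymes (93.3%, all but Acat2). It was present in 41.1% of 27025 genes with a window and in 42.9% of the 10987 tested genes with one. The exact letters TCACNCCAC were found only in Hmgcs1 among the 23 genes, against 1.44% of all genes and 1.34% of tested genes with a window. The E-box CACGTG, which SREBP also binds, was found in 6 of the 23 genes (26.1%), against 8.09% of all genes and 11.2% of tested genes with a window. An exact direct repeat of AGGTCA with 4 bases between, an idealised form of the site bound by LXR, was found in none of the 23 genes. It was found in 4 of the 27025 genes (0.0148%). A match this rare cannot tell whether a window holds an LXR site, and looser forms were not searched. These are matches of letters only, and matches of different motifs may share bases at their ends. Hmgcs1 is shown for its sterol response element, Mvk for the 5 CCAAT boxes in its window, Nsdhl and Cyp51 as later enzymes, and Abca1 as an exporter without a CCAAT box. Each runs 5′ to 3′ from 180 bases before to 20 after the start, with CCAAT or its complement ATTGG and the sterol response element in capitals.
Hmgcs1 (chr13:119690171-119690370, plus strand): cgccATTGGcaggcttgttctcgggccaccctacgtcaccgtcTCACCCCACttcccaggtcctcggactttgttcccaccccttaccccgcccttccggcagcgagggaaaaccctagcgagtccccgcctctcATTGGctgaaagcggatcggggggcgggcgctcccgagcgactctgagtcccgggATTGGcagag
Mvk (chr5:114444089-114444288, plus strand): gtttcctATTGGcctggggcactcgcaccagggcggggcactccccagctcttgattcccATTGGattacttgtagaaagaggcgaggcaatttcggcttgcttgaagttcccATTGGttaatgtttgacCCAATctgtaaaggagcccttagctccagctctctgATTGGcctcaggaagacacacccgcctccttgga
Nsdhl (chrX:72918341-72918540, plus strand): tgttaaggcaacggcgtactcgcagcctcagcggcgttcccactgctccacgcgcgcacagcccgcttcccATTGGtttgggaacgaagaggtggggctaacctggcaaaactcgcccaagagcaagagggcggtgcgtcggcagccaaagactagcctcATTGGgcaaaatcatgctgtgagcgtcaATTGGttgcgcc
Cyp51 (chr5:4104678-4104877, minus strand): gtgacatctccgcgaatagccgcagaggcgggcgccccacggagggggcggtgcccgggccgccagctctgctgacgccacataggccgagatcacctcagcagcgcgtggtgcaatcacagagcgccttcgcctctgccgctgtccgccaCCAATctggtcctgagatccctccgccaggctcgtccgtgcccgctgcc
Abca1 (chr4:53159876-53160075, minus strand): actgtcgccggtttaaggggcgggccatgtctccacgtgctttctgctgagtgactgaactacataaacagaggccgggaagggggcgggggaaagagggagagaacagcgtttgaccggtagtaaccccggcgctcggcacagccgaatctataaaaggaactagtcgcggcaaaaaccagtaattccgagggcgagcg

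Summed over the 18 synthesis enzymes, the level was lower in untreated cells at day 3 than at day 0, and higher in treated than in untreated cells on both days. Single enzymes did not all follow this sum. The summed level of the 18 enzymes was 2407, 2486 and 2493 CPM in the MEFD0 samples and 1398, 1342 and 1603 CPM in MEFD3min. It was 1947, 1833 and 1970 CPM in MEFD3plu. It was 1441, 1183 and 1404 CPM in MEFD5min and 1689, 1988 and 1771 CPM in MEFD5plu. The groups did not overlap within either day, and every MEFD0 sample was above every later sample. The sum was not tested, and it is weighted towards abundant enzymes, so it does not show a rise of every enzyme. Cyp51 and Hmgcs1 made up 13.6% and 16.6% of it in MEFD3min, and 21.6% and 19.1% in MEFD3plu. Their shares were 10.9% and 17.1% in MEFD5min, and 16.5% and 20.95% in MEFD5plu.

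**Figure D1:**
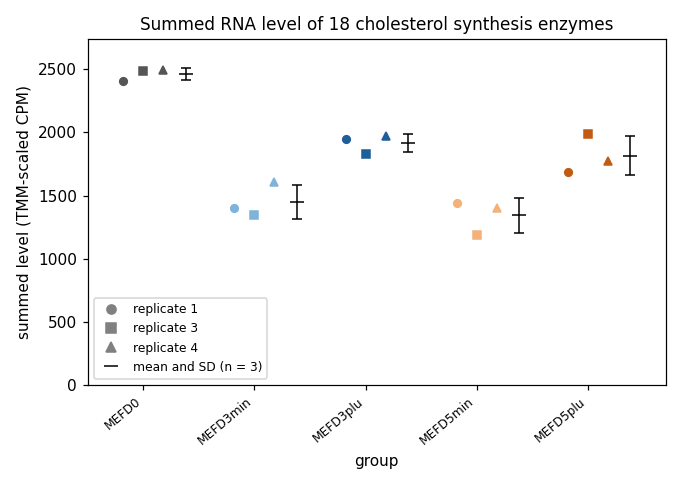
Summed level of 18 cholesterol synthesis enzymes (TMM-scaled CPM) in each of the 15 samples, by group. Symbols mark the replicate number, and bars the mean and SD over 3 samples. The sum is weighted towards abundant enzymes such as Cyp51 and Hmgcs1. The mean was 2462 CPM in MEFD0, 1448 and 1916 CPM in MEFD3min and MEFD3plu, and 1343 and 1816 CPM in MEFD5min and MEFD5plu.

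Within some groups, most enzymes were high or low in the same library, so they were not independent measures. MEFD5plu replicate 3 was the highest of its group in 18 of 18 enzymes. MEFD5min replicate 3 was the lowest of its group in 15 of 18, and MEFD3min replicate 4 the highest in 14 of 18. The order was less uniform elsewhere. Replicates 1, 3 and 4 were the highest in 8, 3 and 7 enzymes in MEFD3plu, and in 0, 11 and 7 in MEFD0. MEFD3plu replicate 3 was the lowest in 13. Whether all genes tested shared these orders was not tested. Without MEFD5plu replicate 3, 14 genes were called higher and 3 lower at day 5, and without MEFD5min replicate 3, 14 and 4, against 14 and 4 with all samples.

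Between MEFD0 and MEFD3min, 19 of the 29 genes fell and 5 rose, where 28.6% of all genes tested fell and 31.4% rose (edgeR's quasi-likelihood test over all 15 samples, Benjamini-Hochberg adjusted p under 0.05). Among the 18 enzymes 15 fell and the other 3 were not called, with a median log2 fold change of -0.88 against 0.04 over all genes tested. All 7 enzymes of the early mevalonate steps, from Acat2 to Fdps, were among those that fell. Acat2, which joins acetyl-CoA units at the head of the path, stood at 126, 129 and 127 CPM in MEFD0 and at 43.5, 42.5 and 56.0 CPM in MEFD3min. Its log2 fold change was -1.43 ± 0.11 (SE, adjusted p = 6.4e-09), and the groups lay far apart. Of its 50-base stretches 39.1% also occur in the genes Acat3 or Tcp1. Mean Acat3 was 0.61 CPM in MEFD0 and 0.20 CPM in MEFD3min, while mean Tcp1 was 558 and 397 CPM (-0.49, adjusted p = 0.0012). The counts of Acat2 are therefore uncertain, and the part of shared reads in them was not tested. The same limit holds for Fdps, which fell by 1.05 ± 0.15 on the log2 scale and shares 26.7% of its exon bases with Gm43738 on the same strand, and for Idi1, with 25.3% of its 50-base stretches also in other genes. Smaller exon overlaps were found for Tm7sf2 (12.1%, Vps51 on the same strand) and, on the other strand, for Hmgcs1 (12.1%) and Scap (13.2%). Lss, which closes the sterol rings to lanosterol, fell as far, from 140.0, 151 and 125 CPM to 47.1, 57.2 and 50.5 CPM (log2 fold change -1.43 ± 0.10, adjusted p = 3.7e-09). Mvk, the mevalonate kinase, fell by 1.26 ± 0.10 on the log2 scale, Idi1, which isomerises isopentenyl diphosphate, by 1.25 ± 0.13, and Msmo1, the sterol C4 demethylating oxidase, by 1.16 ± 0.12. Hmgcs1, which makes HMG-CoA, fell less, by 0.58 ± 0.09 from a mean of 358 CPM to 240.3 CPM. The 3 enzymes not called were Fdft1, the squalene synthase, at -0.05 ± 0.11, Sc5d at -0.20 ± 0.09 (-0.27 and adjusted p = 0.019 without MEFD3min replicate 4) and Hsd17b7 at 0.01 ± 0.08. The smallest called fall, that of Dhcr7 (-0.32 ± 0.13), was lost when MEFD3min replicate 1 (-0.22, adjusted p = 0.19), MEFD0 replicate 1 (adjusted p = 0.085) or MEFD0 replicate 3 (adjusted p = 0.13) was left out, and with at least 10 counts required in every sample (adjusted p = 0.057).

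In MEFD3plu against MEFD3min, 16 of the 29 genes were upregulated and 5 downregulated, where 28.0% of all genes tested were higher and 28.0% lower. The median log2 fold change was 0.31 over the 29 genes and 0.00 over all genes tested (-5.7e-04). Without Abcg1 the counts were 15 and 5 of 28, and with Abcg1 at its bound the median was the same. With a fit of only the samples compared, Msmo1, Hsd17b7, Srebf2 and Npc2 were not called (adjusted p between 0.070 and 0.10), which left 3 genes lower. Among the 18 enzymes, 11 were higher and 2 lower. The 11 were Acat2, Hmgcs1, Pmvk and Mvd of the early steps and Lss, Cyp51, Tm7sf2, Msmo1, Nsdhl, Hsd17b7 and Dhcr7 of the sterol steps. Lss rose most, to 141, 147 and 122 CPM in MEFD3plu, which overlaps the day 0 values, with a log2 fold change of 1.40 ± 0.10 (adjusted p = 5.2e-09). Cyp51, which removes the 14-methyl group of lanosterol, stood at 188, 174 and 231 CPM in MEFD3min and 405, 394 and 444 CPM in MEFD3plu. Its log2 fold change was 1.07 ± 0.11 (adjusted p = 2.4e-07), and its treated level was 149% of the day 0 mean. Per kilobase of exon, Cyp51 was then the most abundant of the 18 enzymes, at 93.8 CPM per kb, followed by Hmgcs1 at 79.6. Mvd, which forms isopentenyl diphosphate, rose from 28.0, 32.8 and 33.2 CPM to 60.9, 64.2 and 53.0 CPM (0.92 ± 0.11, adjusted p = 1.7e-06). Nsdhl and Dhcr7, a sterol C4 dehydrogenase and the enzyme that completes cholesterol by reducing 7-dehydrocholesterol, rose by 0.76 ± 0.12 and 0.75 ± 0.13. Pmvk, phosphomevalonate kinase, rose by 0.73 ± 0.09 and Hmgcs1 by 0.61 ± 0.09. The smaller rises of Msmo1 (0.31 ± 0.12, adjusted p = 0.039) and Hsd17b7 (0.23 ± 0.08, adjusted p = 0.025) were each lost when 1 library was left out. For Msmo1 these were MEFD3plu replicates 1 and 4 (adjusted p = 0.094 and 0.13) and MEFD3min replicates 1 and 3 (adjusted p = 0.12 and 0.14). For Hsd17b7 they were MEFD3plu replicate 1 (adjusted p = 0.10) and MEFD3min replicate 1 (adjusted p = 0.083).

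**Figure D2:**
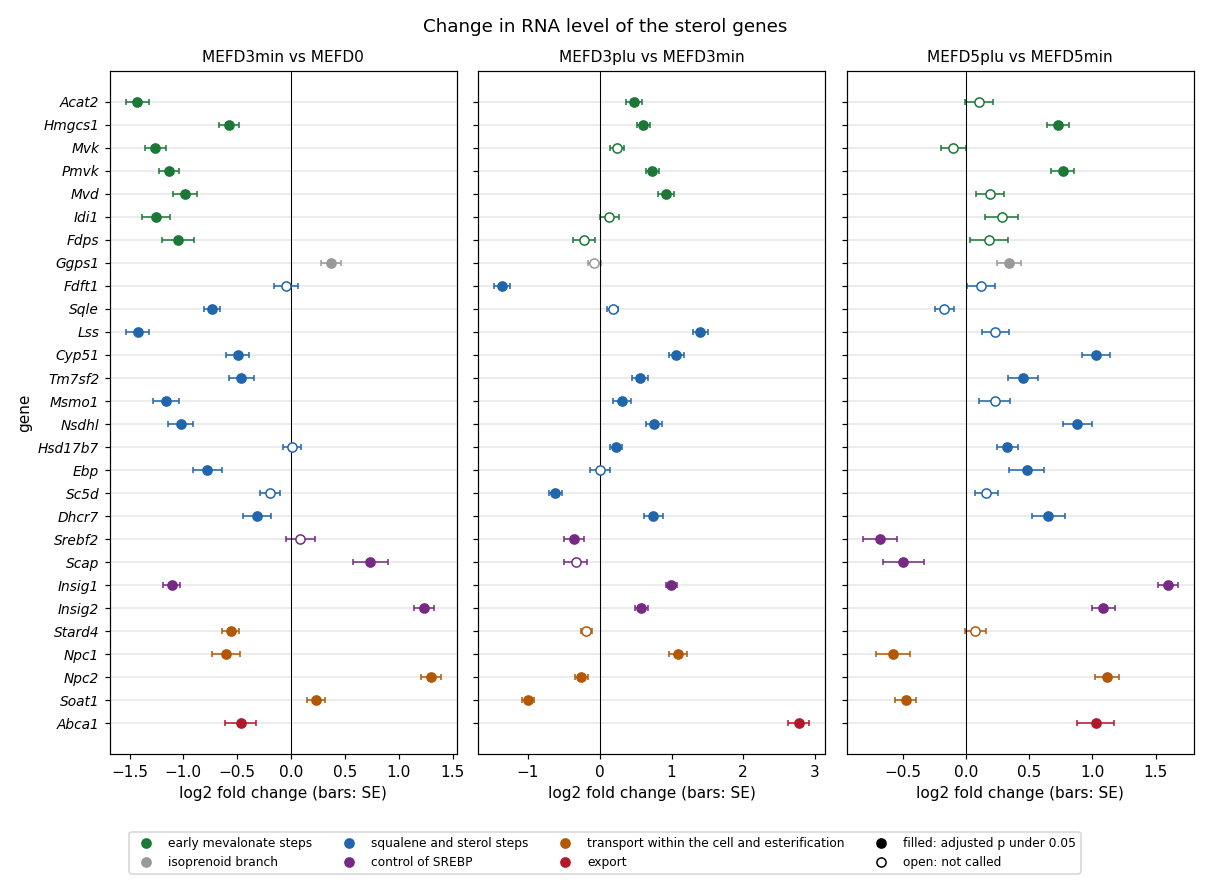
Log2 fold changes with SE of 28 sterol genes, coloured by role, in MEFD3min against MEFD0, MEFD3plu against MEFD3min and MEFD5plu against MEFD5min (the horizontal scales differ). Filled points have an adjusted p under 0.05. Most green and blue points, the 18 enzymes, lie left of 0 in the first panel (15 called lower) and right of 0 in the other panels (11 and 8 called higher). Abcg1 is left out because its fold is a bound.

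Fdft1 and Sc5d were the 2 enzymes that fell under treatment at day 3. Sc5d, the lathosterol desaturase, went from 87.9, 79.1 and 96.1 CPM to 59.4, 53.7 and 58.3 CPM (-0.62 ± 0.09, adjusted p = 1.8e-05). Fdft1 stood at 186, 165 and 212 CPM in MEFD3min and at 75.6, 69.1 and 73.9 CPM in MEFD3plu, so the groups lay far apart (-1.36 ± 0.11, adjusted p = 1.3e-08). The exons of Ctsb, a lysosomal protease gene on the other strand, cover 18.3% of the exon bases of Fdft1, and whether the counting used strand is not given in the sources used here. Without strand, reads from both genes cannot be told apart there. Ctsb stood at 2798, 2970 and 3064 CPM in MEFD3min and at 879, 928 and 922 CPM in MEFD3plu, a log2 fold change of -1.69 ± 0.09 (adjusted p = 5.4e-11). At day 5 neither gene was called (Fdft1 0.12, Ctsb -0.08), and from MEFD3plu to MEFD5plu both rose (1.02 and 0.82). From MEFD0 to MEFD3min they went apart, with -0.05 for Fdft1 and 1.40 for Ctsb. The part of Ctsb reads in the Fdft1 values was not tested. Without Fdft1, 11 of 17 enzymes were higher and 1 lower at day 3.

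In MEFD5plu against MEFD5min, 14 of the 29 genes were higher and 4 lower, where 26.3% and 24.2% of all genes tested were. The median log2 fold change was 0.28, against 0.01 over all genes tested. Without Abcg1, 13 and 4 of 28 were called. Scaled by total counts alone, 11 were higher and 6 lower, against 19.2% and 32.7% of all genes tested, and the median was 0.12. Of the 18 enzymes 8 were higher and the other 10 were not called. The 8 were Hmgcs1, Pmvk, Cyp51, Tm7sf2, Nsdhl, Hsd17b7 and Dhcr7, which had also risen at day 3, and Ebp, the sterol isomerase, which had not (day 3 value 0.00 ± 0.14). Cyp51 stood at 162, 127 and 151 CPM in MEFD5min and at 278, 321 and 301 CPM in MEFD5plu (1.03 ± 0.11, adjusted p = 7.9e-07). Nsdhl went from 40.5, 32.7 and 38.4 CPM to 58.9, 77.1 and 70.0 CPM (0.88 ± 0.12), and the groups did not overlap. Pmvk rose by 0.77 ± 0.09, Hmgcs1 by 0.73 ± 0.09 and Dhcr7 by 0.65 ± 0.13. Ebp rose by 0.48 ± 0.14, a call lost without MEFD5min replicate 4 (0.39, adjusted p = 0.059). Of the 4 enzymes higher at day 3 alone, Lss stood at 0.23 ± 0.10 at day 5 (adjusted p = 0.073, or 0.030 without MEFD5min replicate 1), Mvd at 0.19 ± 0.11, Msmo1 at 0.23 ± 0.12 and Acat2 at 0.11 ± 0.11. Mvk, Idi1, Fdps and Sqle, the squalene epoxidase, were not called on either day. At day 3 they stood between -0.22 and 0.24 and at day 5 between -0.17 and 0.28. Sqle passed at day 3 without MEFD3min replicate 3 (0.23, adjusted p = 0.025) and at day 5 without MEFD5min replicate 3 (-0.22, adjusted p = 0.039). At day 5 Sqle was also called lower with DESeq2 (adjusted p = 0.019), its size factors (0.031) or total counts alone (0.0014). Total counts alone also called Sqle higher at day 3 (0.028) and Mvk lower at day 5 (0.031). Idi1 was called higher at day 5 with only the compared samples (0.043), without a filter (0.021) or with the replicate number as a block (0.042). Lss was likewise called higher at day 5 with only the compared samples (0.044) or with that block (0.023). Ggps1, which makes the geranylgeranyl diphosphate used for protein prenylation, stood at -0.08 ± 0.09 at day 3 and rose at day 5 (0.34 ± 0.09, adjusted p = 0.0051). The day 5 calls of Ebp, Hsd17b7 and Ggps1 were lost when libraries were scaled by total counts alone (adjusted p = 0.057, 0.11 and 0.083).

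The 4 control genes moved in different directions. Insig1 and Insig2, whose proteins retain Scap in the endoplasmic reticulum, were higher in treated cells on both days. Insig1 fell from 186, 206 and 187 CPM in MEFD0 to 84.3, 95.4 and 88.6 CPM in MEFD3min (-1.11 ± 0.08, adjusted p = 2.1e-09). It stood at 180, 178 and 179 CPM in MEFD3plu (1.00 ± 0.08, adjusted p = 9.3e-09), close to day 0. At day 5 it stood at 89.5, 88.7 and 93.7 CPM in untreated and 250.1, 297 and 276 CPM in treated cells (1.60 ± 0.08, adjusted p = 5.7e-11), above every other sample of the series. Insig2 took another course, since it rose in untreated cells from 40.1, 41.8 and 40.5 CPM in MEFD0 to 99.3, 85.0 and 103 CPM in MEFD3min (1.23 ± 0.09). It rose further with treatment, by 0.58 ± 0.09 at day 3 and 1.09 ± 0.09 at day 5. Srebf2 was lower in treated cells. It stood at 176, 167 and 144 CPM in MEFD5min and 113, 89.8 and 101 CPM in MEFD5plu (-0.68 ± 0.14, adjusted p = 5.7e-04). At day 3 its values were 211, 289 and 192 CPM in MEFD3min and 182, 194 and 163 CPM in MEFD3plu, and the groups overlapped (-0.36 ± 0.14, adjusted p = 0.032). Without MEFD3min replicate 3, the highest of these, the change was -0.17 (adjusted p = 0.23). The call was also lost without MEFD3plu replicate 1 or 4 (adjusted p = 0.066 and 0.12). Scap was lower at day 5, with 72.5, 73.7 and 61.6 CPM in untreated and 59.8, 46.1 and 41.7 CPM in treated cells (-0.49 ± 0.17, adjusted p = 0.020). That call was lost without MEFD5plu replicate 3 or 4 or MEFD5min replicate 1 or 3 (adjusted p between 0.060 and 0.10). At day 3 Scap stood at -0.34 ± 0.16 (adjusted p = 0.092), and with the replicate number as a block at -0.32 (adjusted p = 0.021). Mvk passed at day 3 with that block (0.24, adjusted p = 0.049, against 0.052 without it). Without MEFD3min replicate 4, both passed (Scap -0.48, adjusted p = 0.017, and Mvk 0.34, adjusted p = 0.0057).

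Among the transport genes, Npc1 and Npc2, the membrane and the soluble protein that together pass cholesterol out of the lysosome, moved in opposite directions on each day. Npc1 stood at 41.9, 59.3 and 40.6 CPM in MEFD3min and 106, 104 and 92.6 CPM in MEFD3plu (1.09 ± 0.13, adjusted p = 1.7e-06). At day 5 it stood at 38.1, 41.1 and 36.1 CPM in untreated and 28.3, 23.1 and 26.0 CPM in treated cells (-0.57 ± 0.13, adjusted p = 0.0017). Within treated cells it fell by 1.97 ± 0.13 on the log2 scale between day 3 and day 5, the largest change of any of the 29 genes in that comparison save Abcg1. Npc2 was abundant throughout, with a mean of 427 CPM in MEFD0. It stood at 652, 631 and 732 CPM in MEFD5min and 1400, 1489 and 1479 CPM in MEFD5plu (1.12 ± 0.09, adjusted p = 4.8e-08). At day 3 it was lower with treatment, at 1000, 962 and 1179 CPM against 827, 866 and 933 CPM (-0.26 ± 0.09, adjusted p = 0.025). The day 3 call was lost without MEFD3min replicate 4 (-0.16, adjusted p = 0.12) or MEFD3plu replicate 1 or 3 (adjusted p = 0.10 and 0.068). Soat1, which esterifies cholesterol for storage, was lower with treatment on both days. It fell from 126, 140 and 120 CPM to 67.9, 68.4 and 56.5 CPM at day 3, where it decreased by 1.00 ± 0.08 on the log2 scale (adjusted p = 2.5e-08), and was 123, 125 and 123 CPM against 87.7, 85.1 and 94.1 CPM at day 5 (-0.47 ± 0.08, adjusted p = 1.8e-04). Stard4, a soluble sterol carrier, was not called on either day (-0.19 ± 0.08 and 0.07 ± 0.08, the first with an adjusted p of 0.023 without MEFD3plu replicate 1), while it fell between MEFD0 and MEFD3min (-0.56 ± 0.08).

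**Figure D3:**
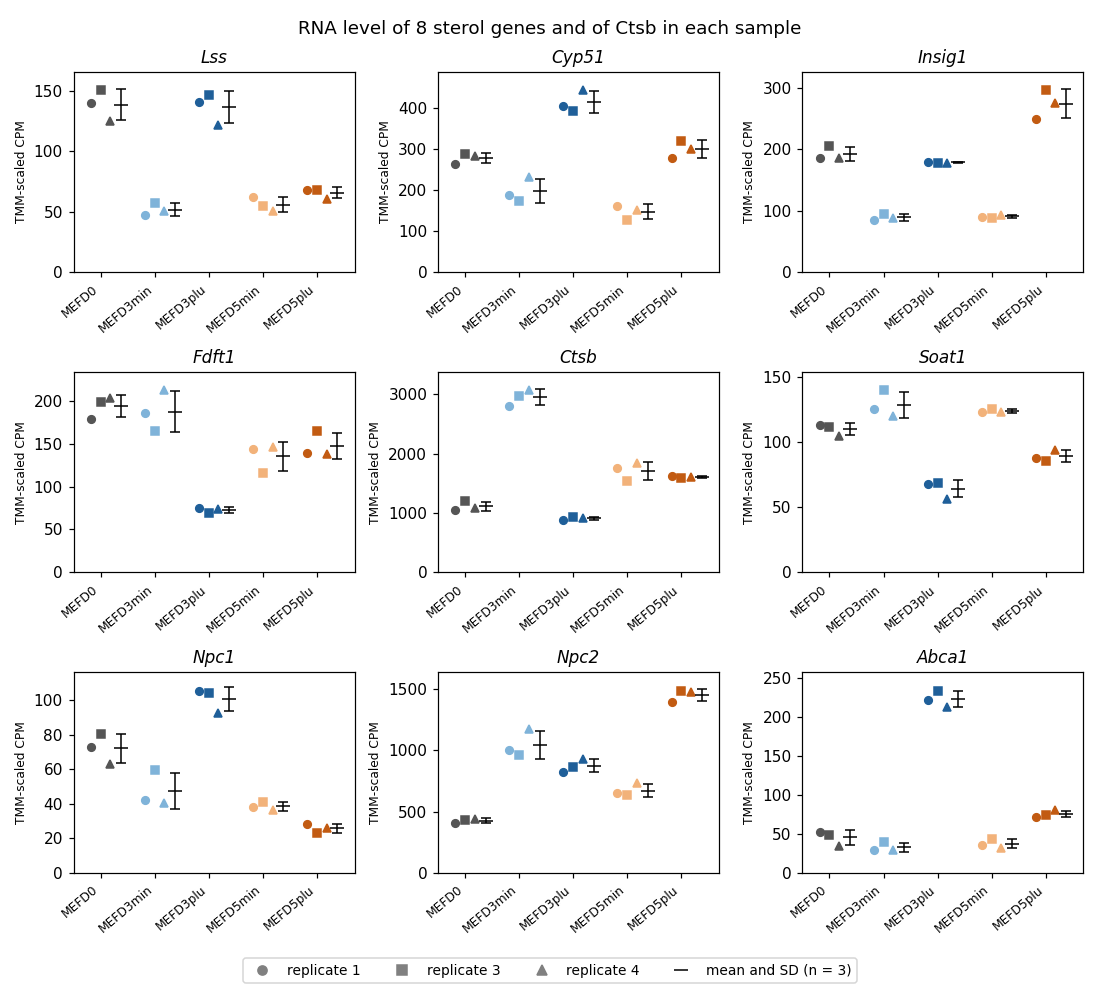
Levels (TMM-scaled CPM, linear axes from 0 that differ between panels) of Lss, Cyp51, Insig1, Fdft1, Soat1, Npc1, Npc2 and Abca1, and of Ctsb, whose exons overlap those of Fdft1, in each of the 15 samples. Symbols mark replicate numbers, bars the mean and SD over 3 samples. Npc1 and Abca1 are highest in MEFD3plu, while Insig1 and Npc2 are highest in MEFD5plu.

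Abca1 was higher in treated than in untreated cells on both days. This exporter, which loads cholesterol onto lipid-poor apolipoproteins, stood at 29, 39.4 and 29.2 CPM in MEFD3min and 222, 234 and 213 CPM in MEFD3plu (2.78 ± 0.15, adjusted p = 9.0e-11). At day 5 the values were 35.6, 43.4 and 32.1 CPM in untreated and 71.7, 74.3 and 80.2 CPM in treated cells (1.03 ± 0.15, adjusted p = 2.1e-05). Its treated level thus fell between the days (-1.56 ± 0.14) but stayed above every untreated sample. Its lower level in MEFD3min than in MEFD0 (-0.47 ± 0.15, adjusted p = 0.011) was lost without MEFD3min replicate 1 or MEFD0 replicate 1 (adjusted p = 0.056 and 0.068). Abcg1, which exports cholesterol to mature lipoprotein particles, was scarce. It had 0, 1 and 0 counts in MEFD0, 0, 1 and 0 in MEFD3min, and 3, 3 and 12 in MEFD3plu. It had 2, 0 and 1 counts in MEFD5min and 63, 32 and 60 in MEFD5plu. Against a floor of 3 counts per library, which covers counting error only, Abcg1 was at least 1.92-fold higher with treatment at day 3 and at least 16.7-fold higher at day 5. At day 3 only replicate 4 was above the floor. Since Abcg1 passed the filter on low counts only through MEFD5plu, it had to differ from that group, and its values are given without a test.

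For 12 of the 29 genes, the effect of treatment was not the same on both days, tested as the treatment by day interaction, in which the day 5 log2 fold change is taken from that of day 3. The difference was above 0 for 5 genes and below 0 for 7, where 22.6% and 25.8% of all genes tested were called in these directions. Neither share of the 29 genes exceeded that of all genes tested. Scaled by total counts alone, the split was 7 and 5, against 29.6% and 20.1% of all genes tested. The 5 were Abca1 (1.75 ± 0.21), Npc1 (1.67 ± 0.19), Lss (1.17 ± 0.15), Mvd (0.73 ± 0.16) and Sqle (0.35 ± 0.11). The 7 were Fdft1 (-1.49 ± 0.15), Npc2 (-1.37 ± 0.13), Sc5d (-0.78 ± 0.13), Insig1 (-0.60 ± 0.11), Soat1 (-0.52 ± 0.12), Insig2 (-0.51 ± 0.13) and Ggps1 (-0.42 ± 0.13). Among the 7, Fdft1, Sc5d, Soat1 and Npc2 were lower with treatment at day 3. For Fdft1, Sc5d and Soat1 the change on that day was the larger in size, while Npc2 was higher with treatment at day 5, by more. The enzymes Hmgcs1, Pmvk, Cyp51, Tm7sf2, Nsdhl, Hsd17b7 and Dhcr7, higher with treatment on both days, had interactions between -0.13 and 0.11, none of them called. For Cyp51 the difference was 0.04 ± 0.15. The calls of Ggps1 and Soat1 were lost with total counts alone (adjusted p = 0.11 and 0.051) and that of Sqle without a filter (adjusted p = 0.078). Further genes passed when 1 library was left out. Without MEFD3min replicate 4 these were Acat2 (0.51) and Mvk (0.44), and without MEFD3min replicate 3 Ebp (-0.66), Fdps (-0.52) and Srebf2 (0.51). Acat2 also passed without MEFD5min replicate 3, Mvk without MEFD5min replicate 4 or MEFD5plu replicate 3, Ebp without MEFD3plu replicate 1, and Stard4 without replicate 1 of MEFD3plu or MEFD5plu. With the replicate block, Acat2 (adjusted p = 0.040) and Ebp (adjusted p = 0.037) passed.

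**Figure D4:**
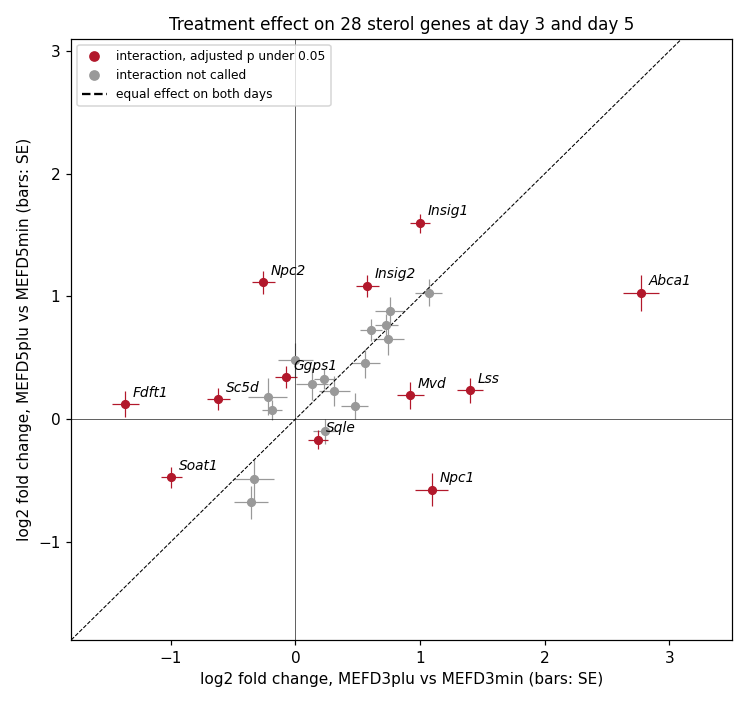
Log2 fold change with treatment at day 3 (horizontal) and day 5 (vertical) of 28 sterol genes, with SE bars. Red points have an interaction with an adjusted p under 0.05, and the dashed line marks equal effects. Abca1, Npc1, Lss and Mvd lie right of the line, Fdft1, Npc2 and Sc5d left of it, and Npc1 and Npc2 lie on opposite sides of 0 on both days.

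Within untreated cells between day 3 and day 5, 2 genes rose and 9 fell, where 21.3% and 21.5% of all genes tested did. The 2 were Acat2 (0.43 ± 0.11) and Pmvk (0.44 ± 0.09). The largest falls were those of Scap (-0.88 ± 0.16), Npc2 (-0.64 ± 0.09) and Hsd17b7 (-0.63 ± 0.08). Without MEFD3min replicate 4, 4 genes rose, with Idi1 (0.38) and Ebp (0.40) added, and Npc1 fell (-0.40). Without MEFD3min replicate 1, Mvd, Sqle and Npc1 fell as well (-0.34, -0.23 and -0.38), and Mvd and Sqle did so without MEFD5min replicate 1. Scaled by total counts alone, 3 genes rose and 9 fell, against 26.9% and 16.0% of all genes tested. Within treated cells, 12 genes rose and 12 fell, where 33.8% and 29.2% of all genes tested did. Without Abcg1, 11 and 12 of 28 were called. Here Lss fell back from 136 to 65.7 CPM (-1.05 ± 0.10) and Scap fell by 1.04 ± 0.16 on the log2 scale. Mvd, at 59.4 CPM in MEFD3plu and 29.8 CPM in MEFD5plu, fell by 1.00 ± 0.11. Ebp (0.71 ± 0.14), Sc5d (0.63 ± 0.09), Npc2 (0.73 ± 0.09) and Insig1 (0.62 ± 0.08) rose. Idi1 also rose (0.39 ± 0.13), a call lost without MEFD5plu replicate 3 (adjusted p = 0.11) or MEFD3plu replicate 3 (adjusted p = 0.079). These comparisons share samples with those of treatment, so their values are not independent of them.

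Further genes around the pathway came from lists of other names. Of 10 genes for SREBP cleavage and sterol-regulated degradation, 4 were higher and 2 lower with treatment at day 3 (28.0% and 28.0% of all genes tested were), and 3 and 1 at day 5 (26.3% and 24.2%). Srebf1, the sister gene of Srebf2 that mainly drives fatty acid synthesis, was the most changed at day 3, with 67.6 ± 16.0 CPM in MEFD3min and 142 ± 12.1 CPM in MEFD3plu (SD, n = 3). Its log2 fold change was 1.07 ± 0.13 (adjusted p = 2.2e-06), opposite in sign to that of Srebf2. Rnf139, a sterol-sensing ubiquitin ligase, led at day 5 (0.93 ± 0.11). Of 14 genes for sterol movement and ester breakdown, 5 were higher and 7 lower at day 3 (against 28.0% and 28.0% of all genes tested) and 6 and 3 at day 5 (against 26.3% and 24.2%). Gramd1b, which carries cholesterol from the plasma membrane to the endoplasmic reticulum, rose from 26.6 ± 5.14 to 156 ± 11.4 CPM at day 3 (2.55 ± 0.12) and by 1.71 ± 0.12 at day 5. Nceh1, a cholesteryl ester hydrolase, fell from 62.5 ± 2.26 to 11.6 ± 0.84 CPM at day 3 (-2.43 ± 0.09) and by 0.78 ± 0.09 at day 5. Nceh1, which frees cholesterol from esters, fell on the days on which Soat1, which makes them, fell.

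Of 10 LXR receptors, partners and targets, 4 were higher and 2 lower at day 3 (against 28.0% and 28.0% of all genes tested), and 5 and 1 at day 5 (against 26.3% and 24.2%). Nr1h3, which encodes LXRα, stood at 0.922 ± 0.199 CPM in MEFD3min and 22.2 ± 1.14 CPM in MEFD3plu (4.59 ± 0.21). It stood at 0.206 ± 0.154 CPM in MEFD5min and 34.3 ± 1.03 CPM in MEFD5plu (7.31 ± 0.35). Nr1h2, which encodes LXRβ and was looked up after the values of Nr1h3 were seen, stood between 51.9 and 55.0 CPM in the means of these 4 groups (0.05 at day 3 and -0.02 at day 5, not called). Not every target named for LXR rose: Arl4c, a small GTPase, fell from 92.3 ± 3.31 to 17.4 ± 2.07 CPM at day 3 (-2.41 ± 0.11). Plin2, a lipid droplet coat protein, rose at day 5 from 110.4 ± 6.02 to 864 ± 10.9 CPM (2.97 ± 0.08).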

How the data were processed

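RNA-Seq counts of 15 samples were analysed, 3 for each of 5 groups taken from the sample titles. The authors aligned reads to GRCm38 and deposited raw counts of reads per Ensembl gene, without normalization. The submitters' processing notes name TopHat2 2.1.0, HTSeq and DESeq2. The annotation release and the strand setting are not given in the sources used here, and the labels and the study's methods name different library kits. GENCODE M21 (GRCm38) gave names to 46091 of the 46603 identifiers, and promoters came from RefSeq (GRCm38.p6).

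In R 4.3.3, edgeR 4.0.16 (filterByExpr, 15997 genes, TMM, glmQLFit and glmQLFTest) gave 6 comparisons from 1 fit over all 15 samples without covariates, with Benjamini-Hochberg adjustment over all genes tested and a threshold of 0.05. CPM are TMM-scaled, and levels compared between genes are per kilobase of merged exons. Scripts were tested on simulated data. With 3 samples against 3 no exact test of a single gene can go below 0.1. The members, lists and tests were chosen with earlier results of these data known. The genes named are all 29 members, some genes of the other lists, and Ctsb, Nr1h2, Acat3 and Tcp1, chosen after values were seen. Those of the other lists were among the 2 most changed called genes of a comparison whose mean log2 CPM was 1 or more. Not all genes that met this rule are named.

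Alternatives were the use of DESeq2 1.42.0, of only the compared samples, of DESeq2 size factors or total counts for scaling, of no filter or one of 10 counts in every sample, thresholds of 0.01 and of 2-fold, a block for the replicate number, and leaving out samples in turn. Leaving out Abcg1 or Fdft1 was added after seeing the data. Deviations of same-numbered samples from their group means correlated at 0.143, 0.228 and 0.36 between MEFD3min and MEFD3plu, so the numbers were taken to pair these samples. Between MEFD0 and MEFD3min the correlations were 0.0837, 0.132 and 0.18, and at day 5 they were 0.0422, -0.00453 and 0.0538. The main fit did not use this pairing, so its day 3 values are those of unpaired samples, and the block was an alternative only. The pairing rests on the numbers in the titles. All samples were used.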

Additional observations from a re-analysis of the deposited data

Results flagged for a closer look

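For 12 of the 29 genes the effect of treatment at day 3 differed from that at day 5 by the interaction test over all genes. These were 5 above 0 and 7 below, where 22.6% and 25.8% of all genes tested were called. In neither direction were such calls more frequent than among all genes tested. The day 3 log2 fold change exceeded that of day 5 by 1.75 for Abca1, 1.67 for Npc1, 1.17 for Lss, 0.73 for Mvd and 0.35 for Sqle. It was below it, with differences of -1.49 for Fdft1, -1.37 for Npc2, -0.78 for Sc5d, -0.60 for Insig1, -0.52 for Soat1, -0.51 for Insig2 and -0.42 for Ggps1. For Npc1 and Npc2 the sign itself turned between the days, and both effects were called on each day. The day 3 call of Npc2 was weak. It was lost without MEFD3min replicate 4 (adjusted p = 0.12) or MEFD3plu replicate 1 or 3 (adjusted p = 0.10 and 0.068), and with only the compared samples (adjusted p = 0.10). For Fdft1, the antisense neighbour Ctsb had an interaction of -1.61 (adjusted p = 2.4e-08). Of the 12 calls, 5 had a difference of at least 2-fold. Under the alternatives other than the 2-fold threshold 9 were kept, and those of Ggps1, Sqle and Soat1 were not.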

How the results depend on the processing

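No call of any of the 29 genes changed sign under any alternative, and calls held in every alternative that tested the gene, other than the 2-fold threshold, for 17 of 21 genes at day 3, 14 of 18 at day 5, 9 of 12 for the interaction, 21 of 24 between MEFD0 and MEFD3min, 11 of 11 in untreated cells over time and 23 of 24 in treated cells over time. Of the genes not called, 4 of 8 at day 3, 7 of 11 at day 5 and 11 of 17 for the interaction stayed so throughout. It was 4 of 5 between MEFD0 and MEFD3min, 13 of 18 in untreated and 5 of 5 in treated cells over time. With DESeq2, Stard4 was called lower at day 3 (-0.19, adjusted p = 0.047) and Sqle lower at day 5 (-0.21, adjusted p = 0.019). The interactions of Acat2 (0.40, adjusted p = 0.044) and Mvk (0.37, adjusted p = 0.042) were then called too. A change of at least 2-fold left 5 genes higher and 1 lower at day 3, 6 and 0 at day 5, 3 and 2 for the interaction, 2 and 9 between MEFD0 and MEFD3min, 0 and 0 in untreated and 2 and 4 in treated cells over time. Abcg1 is counted as higher at day 3, at day 5 and in treated cells over time, both here and among the held calls. Its fold is only a bound, at least 1.92 at day 3, which is under 2-fold, and its tests carry no weight. At day 3, 3 genes were lower with only the samples compared and 3 at an adjusted p under 0.01. Scaling by total counts alone moved the median of all genes tested by -0.16 at day 5, 0.18 for the interaction and -0.12 between MEFD0 and MEFD3min. The median of the 29 genes was then 0.12, 0.086 and -0.69, it was -0.025 in treated cells over time, and the enzyme sum in MEFD0 was 2613 CPM. With each sample left out, the day 3 median lay between 0.25 and 0.45 and the interaction median between -0.14 and 0.0046, the highest of both without MEFD3min replicate 4, and 2 to 4 genes rose in untreated cells over time. With the replicate block, 17 genes were higher and 6 lower at day 3, with Mvk and Scap added. At day 5, where the numbers did not pair the samples, the block gave 16 and 4. Depth limits Abcg1 alone, whose counts were at the floor in 3 groups.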

Other observations

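Genes that use isoprenoids for prenylation, dolichol and ubiquinone, the products of the side branches of the path, were also measured. Of 12 such genes, 9 were higher and 1 lower with treatment at day 3, against 4 and 3 at day 5, where 28.0% and 28.0% of all genes tested were called at day 3 and 26.3% and 24.2% at day 5. For 6 of them the interaction, the day 3 log2 fold change less that of day 5, was called above 0 (22.6% of all genes tested), and the other 6 were not called. Pdss1, which makes the side chain of ubiquinone, was the most changed. It stood at 18.7 ± 0.565 CPM in MEFD0, 4.63 ± 0.775 CPM in MEFD3min, 23.3 ± 2.36 CPM in MEFD3plu, 13.6 ± 2.25 CPM in MEFD5min and 15.3 ± 1.24 CPM in MEFD5plu (SD, n = 3). Its log2 fold change with treatment was 2.33 ± 0.14 at day 3 (SE, adjusted p = 2.7e-10), with an interaction of 2.16 ± 0.19. Nus1, a subunit of the dolichol-making enzyme, rose by 0.80 ± 0.07 at day 3. Icmt, which methylates prenylated proteins, fell at day 5 (-0.90 ± 0.12), with an interaction of 1.18 ± 0.16.

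Of 5 oxysterol and bile acid hydroxylase genes 4 were tested, and all 4 were higher in MEFD3min than in MEFD0 (31.4% of all genes tested were). With treatment 1 was higher and 2 lower at day 3 (28.0% and 28.0% of all genes tested), and 2 were higher and the other 2 not called at day 5 (26.3% and 24.2%). Hsd3b7, which modifies the ring of oxysterols, stood at 29.3 ± 1.32 CPM in MEFD3min and 16.4 ± 0.372 CPM in MEFD3plu (-0.83 ± 0.10), and at 25.1 ± 3.65 CPM in MEFD5min and 33.9 ± 1.34 CPM in MEFD5plu (0.43 ± 0.09). The interaction for Hsd3b7 was -1.26 ± 0.13 (adjusted p = 9.8e-07).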
